A study of Bos taurus with 6 samples.

Results

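Highly methylated domains of the cattle genome were defined here as runs of 3 or more adjacent autosomal bins of 100 kb in which at least 75% of the reads at CpG cytosines were methylated, so that each domain spans 300 kb or more. The members were chosen by the level of a bin, its methylated reads divided by all its reads, pooled over both groups and all 6 whole-genome bisulfite sequencing (WGBS) libraries, and a bin needed 100 reads in every library. By this rule 2609 bins were members, which is 10.4% of the 25076 autosomal bins kept and 260.9 Mb, and they formed 587 domains. On all sequences 27035 bins were kept. The libraries came from rumen epithelial primary cells (REPC), which were taken from 1 Holstein bull calf that was 2 weeks old and had received milk replacer only. In the butyrate group, 3 libraries were made from REPC cultured for 24 h with 5 mM butyrate, and the control group had 3 libraries of the same cells without it. Because all cells came from 1 animal, the replicates are not separate animals. The study's methods call them biological replicates, but the labels do not say that they were separate cultures, so the p-values below measure the spread between libraries, which may be technical. The logistic regression of 500-bp windows is an exception, because it uses read counts and ignores that spread. The epithelial identity of the cells could not be checked with marker genes in these data.

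Bisulfite converts unmethylated cytosine but leaves 5-methylcytosine, so the share of reads that still show cytosine is read as the methylation level. In vertebrate genomes most CpGs outside CpG-dense promoters carry a methyl group, which maintenance methyltransferase activity copies after replication. Cultured cells, however, often hold long partially methylated domains in late-replicating sequence, between which highly methylated sequence lies. Butyrate, a product of rumen fermentation, is a fuel of the rumen epithelium and an inhibitor of histone deacetylases.

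The libraries held 18793438 to 23842285 read counts at CpG cytosines, of which 1449935 to 1826533 lay in the domains. A domain bin had 122 to 5152 reads in a library, with a median of 432, but a CpG cytosine of the domains had on average only 0.403 to 0.508 reads per library. Levels were therefore read over bins and domains and not at single cytosines. CpG density was taken as the count of CpG cytosines covered by at least 1 library, with both strands counted. It also depends on depth and on which sequence could be mapped. Butyrate replicates 1 and 3 were sequenced on lane 5, and butyrate replicate 2 and all controls on lane 6, so that lane and treatment cannot be told apart in those 2 libraries. The methylation level of the mitochondrial sequence was 6.95% to 9.48% in the controls and 8.10% to 11.2% in the butyrate libraries. These ranges overlapped, but both are wide beside the group difference of 0.555 points in the domains given below. Butyrate replicate 1 had the highest level of the 6 libraries both there and in the domains, and the butyrate libraries had the same order in both. Among the controls the order was reversed. Control replicate 1 had the highest mitochondrial level (9.48%) and the lowest domain level (81.06%). Control replicate 2 had the lowest mitochondrial level (6.95%) and the highest domain level (81.15%). The part of the mitochondrial difference in the results below was not tested.

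Most domains were short. Of the 587 domains, 259 spanned 3 bins, 136 spanned 4 bins and 22 spanned 10 bins or more, with a median length of 400 kb. Of the 5365 autosomal bins at 75% or more (21.4% of those kept), 48.6% lay in domains and 2756 stood alone or in pairs. The level of a domain had a median of 81.2% and ranged from 75.6% to 90.2%. Within a domain the highest and the lowest bin differed by a median of 6.44 percentage points. Length was nearly unrelated to level, with a Spearman rho of 0.031 across the 587 domains, and to CpG density, with a rho of -0.098. The median level was 80.9% for domains of 3 bins and 81.3% for those of 10 bins or more.

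**Figure D1:**
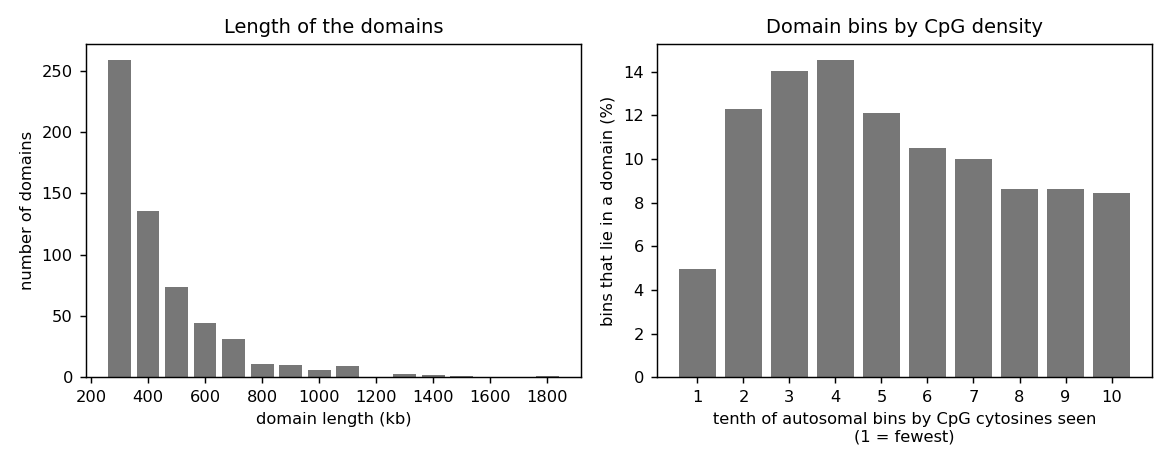
The left plot gives the number of domains (y axis) by length in kb (x axis), and the right plot gives the percentage of kept autosomal bins that lie in a domain (y axis) in each decile of these bins ordered by the CpG cytosines seen (x axis, 1 = fewest). The 259 domains of 300 kb form the tallest bar, and the share of domain bins is lowest, at 4.97%, in decile 1 and highest, at 14.5%, in decile 4.

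The threshold of 75% cut through a continuous range of levels. The members just inside it, at chr1:51900001-52000000, chr2:51900001-52000000 and chr13:11800001-11900000, had a pooled level of 75%. The nearest bins below it, at chr6:105200001-105300000, chr21:69200001-69300000 and chr19:32500001-32600000, had levels of 74.996%, 74.996% and 74.995%. In single libraries, the first of the members ranged from 68.3% to 78.8% and the first of the bins below from 72.2% to 80.9%, so that bins at the threshold changed sides between libraries. In total, 1637 members (62.7%) had levels of 80% or more, 617 had 85% or more and 49 had 90% or more.

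All positions are on the cattle assembly UMD3.1, on which no gene annotation was used here, so the genes in the domains were not analysed. The longest domain, chr13:7700001-9500000, spanned 1800 kb with a pooled level of 80.4% and held 9.92 CpG cytosines per kb. Its bins ranged from 75.4% to 87.6%, and the bins on its sides had 63.1% and 68.2%. Its levels were 79.8%, 79.9% and 79.7% in the 3 controls and 81.3%, 80.7% and 80.8% in the 3 butyrate libraries, here and below in the order of their replicate numbers. All butyrate libraries thus lay above all controls in this domain, by 1.10 points between the means (two-sided exact permutation p = 0.1, the smallest that 3 libraries against 3 can give). Its limma p, adjusted over all 5575 runs of autosomal bins on either side of 75%, was 0.759.

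After it, and with ties in length broken by level, came chr4:35600001-37100000 (1500 kb, 81.5%), chr27:41400001-42800000 (1400 kb, 80.9%), chr9:37100001-38500000 (1400 kb, 80.3%), chr5:19700001-21000000 (1300 kb, 80.2%) and chr16:31600001-32900000 (1300 kb, 79.5%). Another domain of 1300 kb, chr1:7500001-8800000, had a lower level of 79.3%. The 5 domains differed widely in CpG content. The domain on chromosome 4 held 5.58 CpG cytosines per kb, whereas that on chromosome 27 held 28.5 per kb at nearly the same level. The domain on chromosome 5 had 79.7%, 79.3% and 79.6% in the controls and 82.1%, 79.9% and 80.7% in the butyrate libraries, with no overlap (difference 1.34 points, two-sided exact permutation p = 0.1). Its log2 difference of 0.12 was 0.066 without butyrate replicate 1 and 0.031 with lane as a covariate. In the other 4 of these 5 the groups overlapped, and the means differed by -0.1997 points (chromosome 4) to 0.903 points (chromosome 16). The log2 difference on chromosome 16 was 0.079, and 0.124 without control replicate 1 or 0.046 without control replicate 2. The domains on chromosomes 4 and 9 differed in sign when single libraries were left out, and that on chromosome 27 when libraries were centred on their median or lane was a covariate.

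Among domains of 5 or more bins, the level was highest at chr1:133600001-134100000, with 89.7% and all bins between 87.7% and 90.3%. Its neighbouring bins had 58.6% and 47.0%. The controls had 90.3%, 90.9% and 89.5% in this domain and the butyrate libraries 88.6%, 89.9% and 88.9%. The groups overlapped, and the means differed by -1.07 points (two-sided exact permutation p = 0.2). The log2 difference of this domain was -0.166, and -0.0522 with lane as a covariate. The others were chr28:30300001-30800000 (88.6%), chr12:2200001-2700000 (88.1%) and chr12:80800001-81300000 (87.5%). They had differences of 1.16, 0.355 and 1.15 points, and the groups overlapped in each of them. These differences changed in size when single libraries were left out or lane was a covariate. The log2 difference of the domain on chromosome 28 was 0.17 with all libraries, 0.024 without butyrate replicate 3 and 0.0059 with lane as a covariate. At chr12:80800001-81300000 it was 0.15 and 0.060 without control replicate 1 or 0.066 without butyrate replicate 2, and at chr12:2200001-2700000 it was 0.049 and ranged from 0.025 without butyrate replicate 1 to 0.094 without butyrate replicate 3. With lane as a covariate it was 0.316 in the former and 0.0893 in the latter. At chr12:80800001-81300000 the neighbouring bin on one side had a level of 22.4%, the lowest beside any domain, and the one on the other side had 65.7%.

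Domain bins were not simply CpG-poor or CpG-rich. A domain bin held a median of 1037 CpG cytosines and another autosomal bin 1129. When all autosomal bins were ordered by the CpG cytosines they held, 4.97% of the decile with the fewest (113 to 607 per bin) lay in domains, 14.5% of decile 4 (827 to 959) and 8.42% of the decile with the most. Across all 25076 autosomal bins, level and CpG number had a Spearman rho of 0.091, and within the members a rho of -0.104. These values are descriptions, because the bins share libraries and depth.

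The high level of the domains was spread over most of their length. Of 24784 steps of 10 kb in the domains with at least 100 pooled reads, 83.4% had a level of 75% or more and 0.742% were under 50%. In the other autosomal bins, 32.8% of 206217 such steps had 75% or more and 12.1% were under 50%. At the 29667 single CpG cytosines of the domains with 10 or more pooled reads, 72.2% had a level of 80% or more and 4.02% were under 20%, against 43.0% and 11.7% at 590956 such sites in the other bins. Such sites were only 0.825% of the CpG cytosines in the domains and 1.77% of those in the other bins. They are unusually deep and need not stand for the rest. These levels follow in part from the rule and were not tested.

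CpG-dense sequence in the domains was mostly methylated too, which the rule favours, since a bin with many unmethylated reads at dense CpGs is less likely to reach 75%. The values of this kind come from reads the rule used and were not tested. In windows of 500 bp with over 30 CpG cytosines, a density found at CpG islands, the pooled level was 79.0% in the domains and 56.3% in the other autosomal bins. Of 12314 such windows in the domains, 816 with at least 20 pooled reads (6.63%) had a level under 25%, whereas 30.6% of 152674 did in the other bins. Few domain bins held one at all: 14.5%, against 43.3% of the other bins. By domain, 37.3% of the 587 held at least 1 such window. In windows with 1 to 5, 6 to 15 and 16 to 30 CpG cytosines, the domains had levels of 80.2%, 82.3% and 82.3%, and the other bins 64.8%, 71.1% and 71.1%.

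The level was also read in steps of 10 kb across the ends of the domains. The ends are borders of the 100-kb bins, placed by the same reads, so a step in level at the border follows from the rule and does not show how sharp the ends are. Outside, the pooled level was 65.3% in the 10 kb next to the end and 65.04% at a distance of 95 kb. It was 79.7% in the first 10 kb inside and 82.4% at 135 kb inside. Beyond the first bin outside, from 100 to 300 kb, it was 66.3% to 71.0%. At the 1173 domain ends with a kept bin beside them, that bin had a median of 67.0% and was under 50% at 109 ends, where a bin between 2 domains counts at both. Farther out, the median level of the other autosomal bins fell from 70.04% at 2 bins from the nearest domain to 62.1% at over 20 bins. The gap to the next domain on a chromosome had a median of 19 bins, with quartiles of 6 and 48 bins. It was 5 bins or fewer in 139 of 558 cases and 1 bin in 64. Domain bins were found along whole chromosomes and made up from 7.81% of the first decile of the chromosomes' length to 13.0% of the last.

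**Figure D2:**
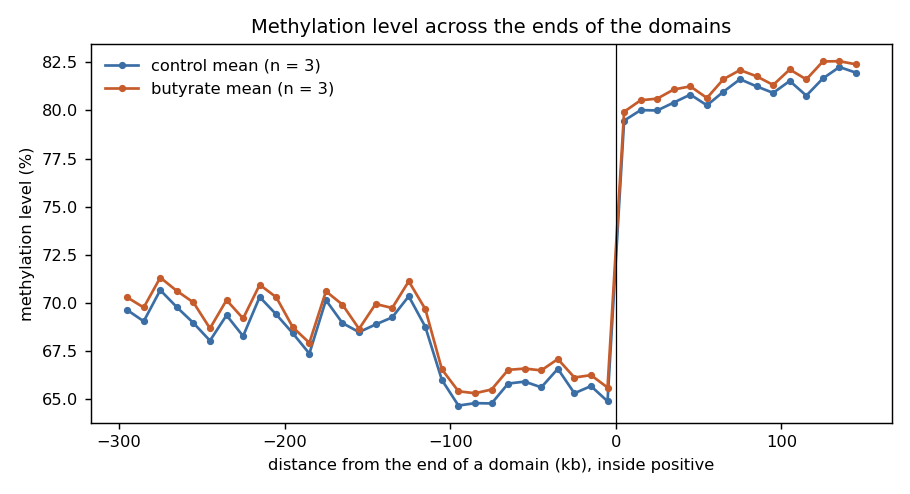
Mean methylation level in percent (y axis) of the 3 control and the 3 butyrate libraries in steps of 10 kb, by distance in kb from the end of a domain with the inside positive (x axis), over both ends of all domains. In both groups the level steps up at the border of the bins, as the rule requires, from 64.9% to 79.5% in the control and from 65.6% to 79.9% in the butyrate mean.

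The first comparison asked whether the level of the domains differed after butyrate. Over all reads in the domains, the controls had levels of 81.06%, 81.15% and 81.098%, and the butyrate libraries 81.8%, 81.56% and 81.597%. All butyrate libraries lay above all controls. The mean was 81.1% ± 0.0455 (SD, n = 3) for the controls and 81.7% ± 0.145 (SD, n = 3) for butyrate, which is higher by 0.555 points (two-sided exact permutation p = 0.1, the smallest possible). The 95% Wilson interval of a library reached at most 0.0638 points to either side, for counting error only and with all counts taken as independent. On lane 6 alone, butyrate replicate 2 exceeded the control mean by 0.452 points and the highest control by 0.404 points, and lane 5 held no control.

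The other autosomal bins differed in the same direction. They had a mean level of 64.7% ± 0.106 (SD, n = 3) without butyrate and 65.3% ± 0.0999 (SD, n = 3) with it, 0.591 points higher. The level of the domains minus that of the other bins was 16.3 to 16.5 points in the controls and 16.3 to 16.5 points in the butyrate libraries. It changed by -0.0366 points with overlapping groups (two-sided exact permutation p = 0.7). On a scale of the log2 ratio of methylated to unmethylated reads, which was chosen after seeing the data, the domains differed by 0.053 and the other bins by 0.037, and the groups overlapped again in the difference of 0.015 between them (two-sided exact permutation p = 0.2). The 0.555 points equal 2.94% of the unmethylated share of the controls in the domains, and the 0.591 points equal 1.67% of it in the other bins. Bins at 75% or more outside domains, bins of 65% to 75% and bins under 65% differed by 0.547, 0.638 and 0.619 points.

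**Figure D3:**
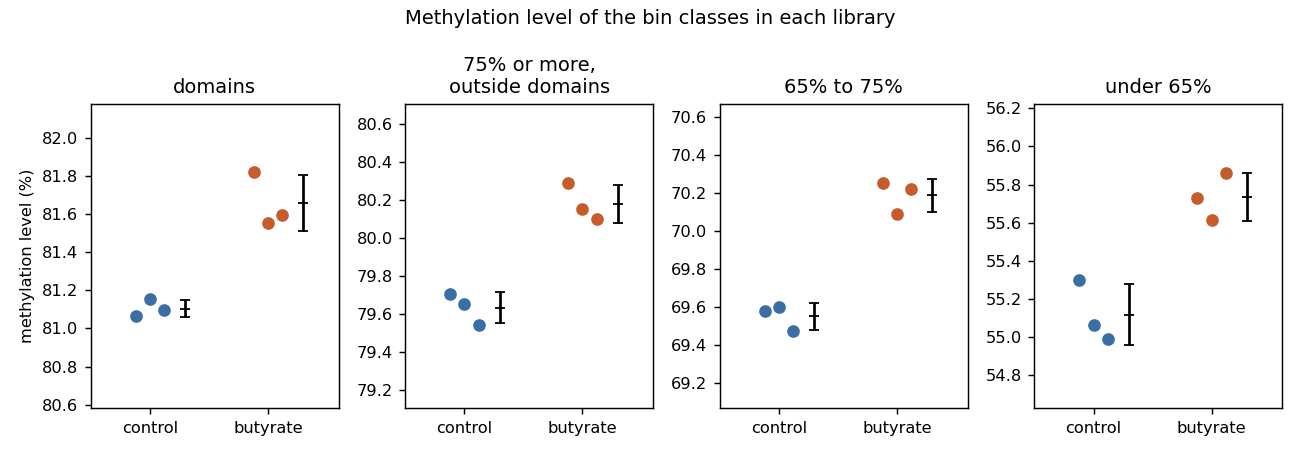
Methylation level in percent (y axis) of each control and butyrate library (points) in 4 classes of autosomal bins, with the mean and SD over 3 libraries beside the points; the y axes do not start at 0 and all span the same number of points. In each class the 3 butyrate libraries lie above the 3 controls, by 0.547 to 0.638 points between the means, and by 0.555 points in the domains.

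The same rule applied to 1 library at a time gave more domain sequence in the butyrate libraries. This count is not a separate result from the level difference above. A higher level puts more bins over a fixed threshold. Reads of each bin were first thinned to the number in its shallowest library. In the controls, 2575, 2569 and 2520 bins were then members, and in the butyrate libraries 2960, 2785 and 2877. All butyrate libraries had more, with a difference of 319.3 bins (two-sided exact permutation p = 0.1) and of 65 domains. Over all autosomal bins, those at 75% or more went from a mean of 5510 to 5881, a difference of 370.3 bins. A member bin by the pooled rule was found in 83.3% to 85.4% of cases in a single control and in 88.7% to 89.3% in a single butyrate library. Each of these libraries had also helped to choose the members. Bins chosen in the 3 controls alone numbered 2483, and their level was 81.3% in the controls and 81.7% in the butyrate libraries. Bins chosen in the 3 butyrate libraries alone numbered 2790, with levels of 81.4% in the butyrate libraries and 80.7% in the controls. The 2294 bins that both choices shared were 92.4% of the first set and 82.2% of the second. When the choice was made without 1 library, the chosen bins had a level of 80.9% to 81.7% in that library. The high level thus held in reads the choice had not used.

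By CpG density, the difference between groups in the domains was 0.739 points in windows with 1 to 5 CpG cytosines, 0.579 points with 6 to 15, 0.401 points with 16 to 30 and 0.568 points with over 30. In the sparsest windows, the controls had levels of 79.8%, 79.8% and 79.9%, and the butyrate libraries 80.8%, 80.4% and 80.5%. The groups did not overlap in the first 3 classes (two-sided exact permutation p = 0.1 and adjusted p = 0.133 over the 4 classes) but did in the densest windows (two-sided exact permutation p = 0.2, adjusted p = 0.2). In those, control replicate 2 had 79.2%, above the 79.0% of butyrate replicate 3, and the groups were separate without that control (0.794 points) or without that butyrate library (0.706 points).

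In the other autosomal bins, the differences were larger the denser the CpGs, from 0.225 points in the sparsest windows, where the groups overlapped, to 0.762 points in the densest. The gap between domains and other bins was therefore set out by library within each class. It was chosen after these values were seen and is given as a description, with no test. In windows with 1 to 5 CpG cytosines, the level of the domains minus that of the other bins was 15.1, 14.99 and 15.2 points in the controls and 15.6, 15.5 and 15.7 points in the butyrate libraries. The groups did not overlap, and the mean was 0.514 points higher in butyrate. It was 0.391 points for butyrate replicate 2 alone, 0.446 to 0.578 points without any 1 library, and also separate on the log2 ratio scale. In windows with 6 to 15 CpG cytosines it was 0.134 points, also without overlap. With 16 to 30 and over 30 CpG cytosines it was -0.105 and -0.194 points with overlapping groups. Without any 1 library these values ranged from -0.160 to -0.0363 points and from -0.352 to 0.0416 points. On the log2 ratio scale they had the other sign, at 0.0041 and 0.0046.

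**Figure D4:**
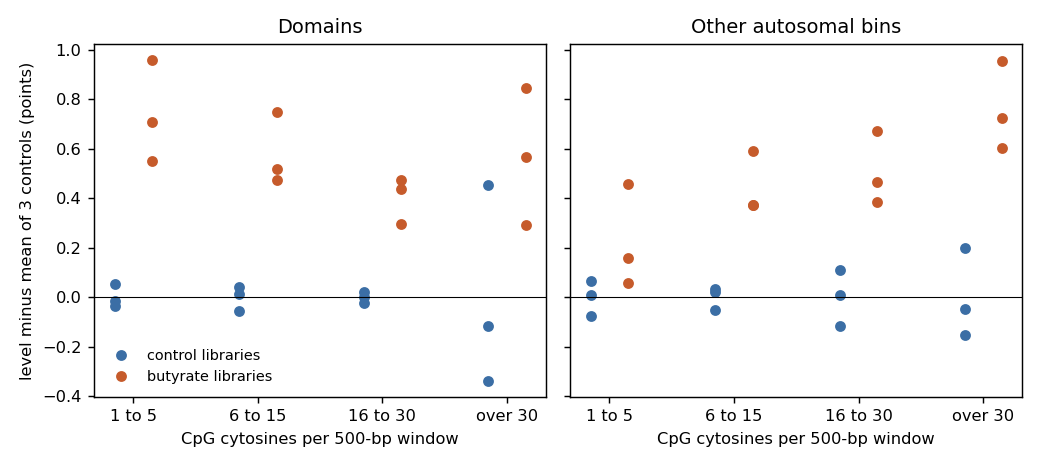
Level of each library minus the mean of the 3 controls, in percentage points (y axis), in 500-bp windows by the number of CpG cytosines seen (x axis), for the domains (left) and the other autosomal bins (right). In the sparsest windows the mean difference is 0.739 points in the domains and 0.225 points in the other bins, and in the densest windows it is 0.568 and 0.762 points.

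Single bins of the domains were then tested for a difference with limma on log2 ratios over all 27035 bins. It called 0 of the 2609 members at an adjusted p under 0.05, as it called 0% of all bins, and the smallest adjusted p was 0.882. At an unadjusted p under 0.05, 180 members passed (6.90%, beside 5.58% of all bins), with 139 higher and 41 lower after butyrate. Over all bins, 1052 were higher and 457 lower at that p. On percentage points in place of log2 ratios, 74 members passed it (2.84%, beside 5.59% of all bins), so that the order of the shares depended on the scale. In all, 63.4% of the members were higher in butyrate, beside 59.7% of all bins. That share was 58.1% with lane as a covariate and 56.2% when each library was centred on its median. Of the bins outside domains, 55.5% and 51.0% were higher under these settings. With no overlap of the groups, 213 members (8.16%) were higher in butyrate, beside 7.83% of all bins, and 76 (2.91%) were lower, beside 3.33% of all bins. Both shares were near those of all bins. Counting error alone gave the level of a member bin in 1 library a median binomial SD of 1.80 points, so that small differences of a single bin were not detectable at this depth.

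The 2 members with the smallest p in each direction were in 4 domains. At chr23:46200001-46300000, in the domain chr23:45800001-46400000, the controls had 76.7%, 79.6% and 79.95% and the butyrate libraries 85.3%, 84.9% and 84.8%, from 404 to 490 reads each. The log2 ratio was higher by 0.61 (SE 0.13) in butyrate (limma adjusted p = 0.882). At chr15:36500001-36600000, in the domain chr15:36400001-37200000, the levels were 85.4%, 85.7% and 85.9% in control and 88.8%, 92.4% and 91.1% in butyrate, with a log2 difference of 0.71 (SE 0.16). In both bins all butyrate libraries lay above all controls.

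Of the members that were lower in butyrate, chr6:20200001-20300000, in the domain chr6:20200001-20500000, had 91.7%, 88.5% and 86.2% in control and 81.9%, 83.4% and 83.97% in butyrate, from 139 to 196 reads. At chr4:44300001-44400000, in the domain chr4:44300001-44600000, the levels were 88.2%, 85.8% and 85.9% in control and 84.03%, 80.8% and 80.8% in butyrate. Their log2 differences were -0.69 (SE 0.19) and -0.51 (SE 0.15), and neither passed the adjusted test (limma adjusted p = 0.882). Both whole domains were nevertheless higher in butyrate by 0.955 and 1.13 points, with overlapping groups. The domain on chromosome 23 was higher by 1.66 points with no overlap, and that on chromosome 15 by 1.44 points with overlap. Single libraries moved these values as well. The log2 difference of the domain on chromosome 6 ranged from 0.049 without control replicate 2 to 0.150 without control replicate 1, and that on chromosome 4 from 0.066 without butyrate replicate 1 to 0.139 without control replicate 2. On chromosome 15 it ranged from 0.083 without butyrate replicate 3 to 0.198 without control replicate 1. On chromosome 23 it ranged from 0.097 without butyrate replicate 1 to 0.174 without butyrate replicate 2. With all libraries it was 0.0936, 0.107, 0.141 and 0.142 on chromosomes 6, 4, 15 and 23. With lane as a covariate it was 0.152, 0.0441, 0.0518 and 0.0791 in the same order.

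Whole domains gave more reads per test. Beside 4988 other runs of autosomal bins on either side of 75%, limma called 0 of the 587 domains and 0% of all 5575 runs, with a smallest adjusted p of 0.510 among the domains. At an unadjusted p under 0.05, 43 domains passed (7.33%, beside 6.71% of all runs), 39 higher and 4 lower in butyrate. Over all runs, 298 were higher and 76 lower at that p. The count of domains was 27 on percentage points (4.60%, beside 6.40% of all runs), 24 with centred libraries (4.09%, beside 5.36%) and 19 with lane as a covariate (3.24%, beside 5.96%), so that their share was below that of all runs under these settings. The domains' share at that p was also lower with the replicate block (5.11%, beside 6.44%) and without any 1 library. It was higher only in the main fit and with other prior counts. In total, 440 domains (74.96%) were higher in butyrate, beside 68.6% of all runs. The share of domains higher in butyrate was 63.5% with lane as a covariate and 53.7% when each library was centred on its median, beside 60.5% and 49.1% of the other runs. With no overlap, 88 domains (14.99%) were higher, beside 11.6% of all runs, and 10 (1.70%) were lower, beside 2.24%. The runs differ in length and depth, so these shares are set side by side without a test. By length, domains of 3, 4, 5 to 9 and 10 or more bins differed by 0.610, 0.445, 0.575 and 0.524 points (two-sided exact permutation p = 0.1 for each).

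Domains were found on every autosome, with unequal shares. Chromosomes 4, 23 and 20 had the highest share of bins in domains, with 15.6% (189 bins, 43 domains), 15.1% (79 bins, 16 domains) and 13.9% (100 bins, 23 domains). Chromosomes 29, 21 and 25 had the lowest, with 3.68% (19 bins, 5 domains), 5.73% (41 bins, 12 domains) and 6.28% (27 bins, 6 domains). Chromosomes with more CpG cytosines per kb tended to hold less domain sequence, with a Spearman rho of -0.407 over 29 chromosomes, which is given as a description. The level within the domains was similar on all chromosomes, from 80.004% on chromosome 29 to 82.4% on chromosome 23.

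The level of the domains was higher in butyrate on all 29 autosomes, without overlap on 22 of them. The other bins were also higher on all 29, by 0.287 to 0.746 points. Overlap in the other bins was not counted by chromosome, but over all autosomes the groups did not overlap there either. The 22 can therefore not be read as particular to the domains. On chromosome 4 the controls had 80.9%, 80.9% and 80.7% and the butyrate libraries 81.6%, 81.4% and 81.5%, without overlap. On chromosomes 20, 23 and 29 the groups overlapped, with differences of 0.213, 0.552 and 0.2999 points. On chromosomes 21 and 25 they did not, with differences of 1.02 and 0.631 points. The highest difference was on chromosome 28, which was named after its values were seen: 80.995%, 80.8% and 80.7% in control and 81.9%, 82.1% and 81.999% in butyrate (1.16 points, beside 0.564 points in its other bins). The chromosomes share the same 6 libraries and are not independent replicates of the treatment.

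**Figure D5:**
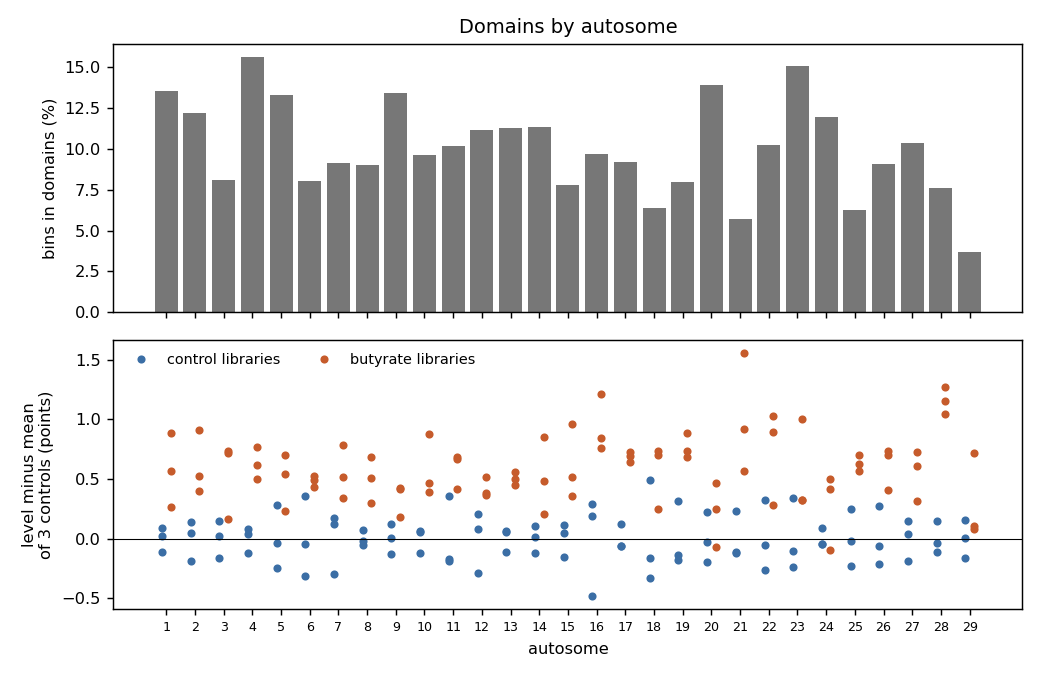
The upper plot gives the percentage of kept bins that lie in domains (y axis) on each autosome (x axis), and the lower plot the level of the domains in each library minus the mean of the 3 controls, in percentage points. The share runs from 3.68% on chromosome 29 to 15.6% on chromosome 4, and the mean difference is above 0 on all 29 autosomes.

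Differentially methylated regions (DMRs) of 500 bp could be tested at few places in the domains. A window was tested if every library had a CpG with 10 or more reads in it, not always the same CpG. Of 8874 such windows, 44 lay in domains, or 0.496%. One of them passed the study's criteria of q under 0.05 in logistic regression and a difference over 10 points, beside 0.789% of all windows. This window, chr29:17789501-17790000, had levels of 76.9%, 34.8% and 54.5% in control and 82.4%, 0% and 75.2% in butyrate, from 10 to 141 reads. No CpG in it had 10 or more reads in all 6 libraries, so the levels do not come from the same cytosines. The groups overlapped, and the mean over libraries was 55.4% in control and 52.5% in butyrate although the pooled difference was 22.4 points (logistic regression q = 0.0162). A quasi-binomial test, which allows for spread between libraries, called 0 of the 44, as it called 0 of all 8874 windows. At an unadjusted p under 0.05 it had 1 of the 44, beside 475 of the 8874.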

How the data were processed

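Whole-genome bisulfite sequencing was done on 3 control and 3 butyrate libraries of REPC, made with the Pico Methyl-Seq kit. Per the study's methods and the submitters' processing notes, the authors trimmed reads with Trim Galore (0.4.1), mapped them with bowtie2 and called cytosines with Bismark. The notes name the build UMD3.1 and the methods UMD3.1.1, and the labels and the methods disagree on read length and run type, and neither duplicate removal nor a conversion rate is given in the sources used here. The deposited values are counts of methylated and unmethylated reads per CpG cytosine, with no normalization by the authors. Reads spanning several CpGs are counted at each, so the counts are not independent. The Wilson intervals and binomial SDs treat them as independent and so understate even the counting error.

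The files have no header, and the methylated column was recognised from its values, whose share is low on mitochondrial DNA. The 6 files were merged by position and counts summed in 100-kb bins and 500-bp windows. Levels were compared by two-sided exact permutation tests. Bins and runs were tested with limma (3.58.1) and eBayes on log2((methylated + 1)/(unmethylated + 1)), and 500-bp windows by logistic regression on CpGs with 10 or more reads, each with Benjamini-Hochberg adjustment, which took the place of SLIM. The scripts' tests were checked on simulated counts. For limma these held counting error only and changes larger than those of the domains, so they do not show what it can detect here. Counts of replicate pairs had a chi-square over degrees of freedom of 1.66 to 1.74, which reads counted at several CpGs also raise, so it does not show separate cultures. All 6 libraries were kept as the labels give them. Named were the 6 longest domains (ties by level), the 4 of the highest level among those of 5 or more bins, those holding the 2 bins with the smallest p in each direction, and the 3 chromosomes at each end of the share of bins in domains. The domains, lists and tests were chosen with earlier results of these data known. No sequences or genes are given, because no genome or annotation of UMD3.1 was used here. Alternatives were other thresholds, run lengths, bin sizes, read minimums, scales, lane and replicate terms, and leaving out each library.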

Additional observations from a re-analysis of the deposited data

How the results depend on the processing

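The higher level of the domains after butyrate kept its direction and the separation of the groups under all 18 alternatives, from 0.452 points on lane 6 alone, with 1 butyrate library, to 0.606 points without butyrate replicate 2. The difference in member bins by single libraries did so under all 10, but its size depended on the threshold, with 459.3 bins at 70% and 136.3 bins at 80%. In both results all butyrate libraries lay above all controls with all libraries kept. Leaving out a library, lane 6 alone and the replicate block could therefore not change direction or separation. Those settings show only how the size moved. The difference between domains and other bins changed sign at thresholds of 70% (0.00302 points) and 80% (0.0136 points), with equal weight for every bin (0.0702 points) and on the log2 ratio scale (0.0154), and each library left out in turn gave -0.0955 to 0.0203 points. In windows with over 30 CpG cytosines, the 1 butyrate library on lane 6 lay above all controls (0.565 points), and the difference had 1 sign in all pairs of the replicate block (0.568 points), and lay between 0.399 and 0.794 points without single libraries.

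The number of domains was set by the rule: 1157 (5778 bins) at 70%, 273 (1052 bins) at 80%, 1169 with runs of 2 bins, 192 (1288 bins) with runs of 5 bins, 333 with 50-kb bins and 469 (1308 bins) with 200-kb bins. It stayed between 580 and 601 when a library was left out. Limma called 0 member bins and 0 domains under every alternative. At an unadjusted p under 0.05, 2.84% to 7.25% of member bins passed, beside 4.74% to 5.82% of all bins, and 3.24% to 7.33% of domains, beside 5.36% to 6.76% of all runs. The 1 DMR was lost (0 DMRs) with 5 reads, the F test, which called 0 of all windows, or the replicate block. With 20 reads or the same CpGs in all libraries 0 DMRs were called, but its window could not be tested there. When a library was left out, 0 to 2 DMRs were called. The log2 difference of the domain on chromosome 27 from 41400001 was -0.0201 with centred libraries and -0.0335 with lane as covariate. When a library was left out, that on chromosome 4 from 35600001 ranged from -0.0604 to 0.0269 and that on chromosome 9 from 37100001 from -0.0369 to 0.0164. The cause was not tested in these cases. Deviations of same-numbered libraries had correlations of at most 0.0156 across bins. These low values do not decide whether the replicate numbers pair the libraries. In member bins, the median SD over 3 controls was 1.79 points, beside 1.80 points of counting error, which can hide a shared deviation. An SD taken from 3 values tends to fall below the true SD. These values therefore do not show that libraries spread no more than by counting error. The block changed no other call (0.555 points in the domains, exact sign permutation p = 0.25, the smallest possible). Counting error gives member bins a median SD of 1.80 points in a library, which limits the test of single bins.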
